A study of Mus musculus with 20 samples.

Results

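Transcripts of 8 genes that gate entry into the cell cycle were followed in the left ventricle of 20 mice: the D cyclins Ccnd1, Ccnd2 and Ccnd3, the kinase gene Cdk4, and the CDK inhibitor genes Cdkn1a (p21), Cdkn1b (p27), Cdkn1c (p57) and Cdkn2c (p18). The genes were taken by symbol from a named list, chosen with earlier results of these data known, and make up 8 of the 15956 genes in the count table. All 8 passed the filter on low counts and had a mean normalized count over 50. The mice formed 4 diet groups of 5. The NP group ate a normal protein, normal fat diet and the LP group a diet low in casein, so LP compared to NP measures dietary protein restriction (DPR) at normal fat. The HF group ate a high-fat diet with the casein of the NP diet, and the HF+LP group a high-fat diet low in casein. All mice were male. Their age in the labels is 18 months, whereas the methods state a younger age. The labels give neither strain nor any engineered allele. By the labels HF mice were the heaviest, at 58.9 ± 1.76 g, followed by HF+LP mice at 48.6 ± 5.93 g, NP mice at 43.0 ± 7.82 g and LP mice at 32.6 ± 2.69 g (SD, n = 5 each).

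As background, D cyclins switch on the kinases CDK4 and CDK6, which phosphorylate the retinoblastoma protein and its relatives and so release E2F factors that drive the genes of DNA replication. The Cip/Kip inhibitors p21, p27 and p57 bind cyclin and kinase together, whereas the INK4 inhibitor p18 binds the kinase alone. Most cardiomyocytes of the adult heart do not divide, and D cyclins are linked there to hypertrophic growth and the inhibitors to the exit from the cell cycle. p21 is also a target of p53 and a marker of stress and senescence. Left ventricle is a mix of cell types, and in bulk tissue a change in the number of cells of a type and a change in RNA per cell cannot be told apart.

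Promoter windows are shown for Cdkn1a and Cdkn1b, the inhibitors with the smallest p for the average effect of fat, and for Cdk4, the kinase they act on. Each window runs from 250 bases before to 50 bases after a start site in RefSeq (GRCm38.p6), written 5′ to 3′ on the strand of the gene, and all 4 lie on the plus strand. RefSeq windows were matched for 5 of the 8 genes, and Ccnd1, Ccnd2 and Cdkn1c were not matched. Capitals mark matches, on either strand, to the letters named after each sequence. The only capitalised matches that overlap are 2 to GGGCGG in the Cdk4 window.
Cdkn1a, first start site (chr17:29090729-29091028): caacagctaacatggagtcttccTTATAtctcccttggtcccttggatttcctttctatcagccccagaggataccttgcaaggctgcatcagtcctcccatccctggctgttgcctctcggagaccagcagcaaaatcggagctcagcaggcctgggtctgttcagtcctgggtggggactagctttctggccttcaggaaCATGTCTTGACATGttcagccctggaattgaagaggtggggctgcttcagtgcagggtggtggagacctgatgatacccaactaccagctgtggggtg
Cdkn1a, second start site (chr17:29093519-29093818): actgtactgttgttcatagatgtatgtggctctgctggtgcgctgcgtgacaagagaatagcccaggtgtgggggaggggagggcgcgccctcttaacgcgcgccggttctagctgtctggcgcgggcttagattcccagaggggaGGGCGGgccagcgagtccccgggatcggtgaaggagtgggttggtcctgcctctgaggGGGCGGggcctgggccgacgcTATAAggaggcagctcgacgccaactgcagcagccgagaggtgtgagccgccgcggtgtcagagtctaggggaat
Cdkn1b (chr6:134920151-134920450): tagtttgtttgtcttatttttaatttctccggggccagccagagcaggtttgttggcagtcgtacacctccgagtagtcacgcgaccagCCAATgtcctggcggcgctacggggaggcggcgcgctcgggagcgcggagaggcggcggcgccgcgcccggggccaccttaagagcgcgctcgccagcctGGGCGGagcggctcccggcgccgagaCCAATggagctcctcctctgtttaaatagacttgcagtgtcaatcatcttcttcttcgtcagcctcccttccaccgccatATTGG
Cdk4 (chr10:127063285-127063584): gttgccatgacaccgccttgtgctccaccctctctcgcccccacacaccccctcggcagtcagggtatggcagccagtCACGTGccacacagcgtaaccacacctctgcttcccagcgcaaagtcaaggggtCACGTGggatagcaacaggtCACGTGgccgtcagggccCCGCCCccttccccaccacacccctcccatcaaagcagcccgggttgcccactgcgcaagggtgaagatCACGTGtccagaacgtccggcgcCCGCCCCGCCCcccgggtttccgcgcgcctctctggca
The first Cdkn1a window holds CATGNNNNNNCATG, the spacing of the core letters in a pair of p53 half-sites, from position -48 relative to the start site. These letters occur in 0.712% of 32851 mouse promoter windows of the same length. The second Cdkn1a window holds TATAA, the core of a TATA box, at position -25, beside 2 matches to GGGCGG, the letters of a GC box. TATAA occurs in 24.9% of all windows (the first Cdkn1a window has a match on the minus strand) and GGGCGG in 35.7%. The Cdkn1b window holds 3 matches to CCAAT, found in 37.4% of all windows, and 1 to GGGCGG. The Cdk4 window holds 4 matches to CACGTG, an E-box that reads the same on both strands and that 7.15% of windows hold at least once, beside 3 matches to GGGCGG on the minus strand. The motifs were chosen after the sequences had been seen and are descriptions of letters. Reads from the 3′ ends of transcripts do not tell one start site of Cdkn1a from the other.

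Libraries were made with QuantSeq, which reads transcripts near the poly(A) tail, so long and short transcripts can be compared by their counts. Total counts lay between 12559607 and 23331907 per mouse. The library of the mouse labelled LP 13 stood apart, with a median correlation of 0.908 to the other LP libraries, where the other mice reached 0.944 to 0.979 within their groups. It held atrial transcripts, with a summed level of 15290 CPM (counts scaled to library size) over 5 atrial markers, and the atrial myosin light chain Myl7 reached 33675 normalized counts in LP 13 and 30515 at the highest in HF. The library of LP 20 held the highest level of the 20 for each of 20 tested replication and mitosis genes. Their summed level was 341 CPM in LP 20, compared to 56.8 to 104 CPM in the other 19 mice. Summed levels of 8 cardiomyocyte markers lay between 29936 and 46971 CPM in all mice, and were lower in every HF mouse (32039 to 39042 CPM) than in any NP mouse (39692 to 46971 CPM).

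The 8 transcripts spanned a wide range of levels. Over all 20 mice Ccnd2 averaged 320 CPM, above 98.1% of the 13991 genes tested, followed by Ccnd1 at 92.7, Ccnd3 at 70.1, Cdkn1b at 40.1, Cdkn1a at 26.7, Cdkn1c at 25.0, Cdk4 at 13.1 and Cdkn2c at 4.49 CPM, above 34.9% of genes. Ccnd2 lay above Ccnd1 in 20 of 20 mice, Ccnd1 above Ccnd3 in 17, Ccnd3 above Cdkn1b in 19, Cdkn1c above Cdk4 in 18 and Cdk4 above Cdkn2c in 20. The place of Cdkn1a in this order differed by diet. It lay above Cdkn1c in 0 of 5 NP, 1 of 5 LP, 5 of 5 HF and 2 of 5 HF+LP mice, and above Cdkn1b in 4 of 5 HF and 2 of 5 HF+LP mice but in none fed normal fat. Cdkn1a varied most between mice, with a coefficient of variation of 48.5%, and Cdkn1b least, at 17.8%. The spread of Cdkn1a within groups exceeded that of 89.3% of the 10159 genes with a mean normalized count over 50.

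**Figure D1:**
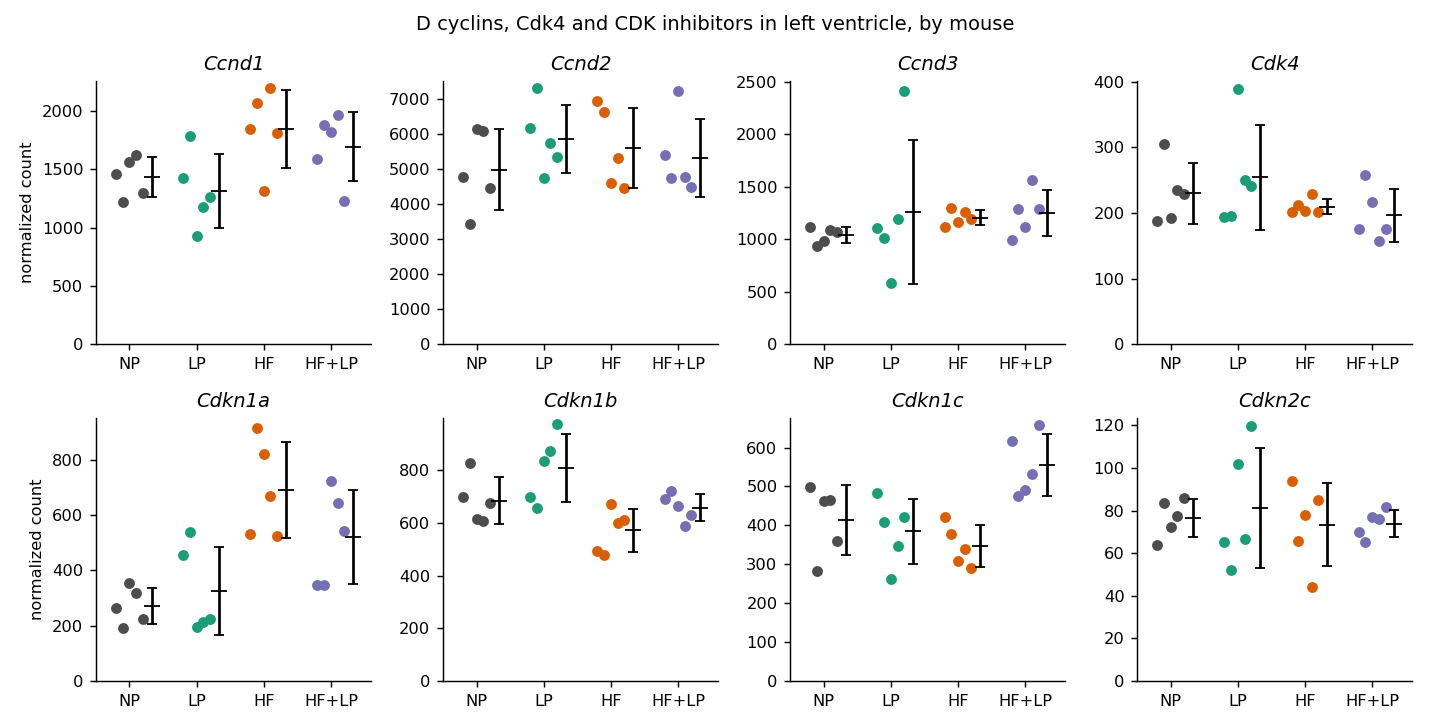
Normalized counts (vertical axes, each from 0, counts scaled by TMM to the mean library) of the 8 genes in each mouse of the 4 diet groups, with the group mean and SD in black beside the points. Cdkn1a lies between 526 and 916 in all 5 HF mice and between 192 and 354 in the NP mice, and Cdkn1c lies between 474 and 657 in HF+LP and between 289 and 421 in HF.

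Fat in the diet was compared at both protein levels, and as an average over both. Calls required a mean normalized count over 50 and, in the quasi-likelihood test of edgeR, an adjusted p (Benjamini-Hochberg) under 0.01. Of the 8 genes only Cdkn1a was called in any of 7 comparisons, and only for the average effect of fat, where 36 of 13991 genes were called higher (0.257%) and 140 in either direction (1%). No member was called in HF compared to NP, where 37 genes were called (0.264%), or in HF+LP compared to LP, where 14 were (0.1%). At an unadjusted p under 0.05, 3 members passed in HF compared to NP (13.1% of all genes), 5 in HF+LP compared to LP (15.9%) and 3 for the average effect of fat (20.8%). Without LP 13 and LP 20, 4 members passed in HF compared to NP (16.5% of all genes). In the same fit 1 passed in HF+LP compared to LP (7.5%) and 4 for the average effect of fat (19.1%). The median log2 fold change of the 8 genes was 0.052 in HF compared to NP, beside -0.00108 over all genes tested, with 4 members higher and 4 lower.

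Cdkn1a (ENSMUSG00000023067, chr17:29090976-29100727 on the plus strand of GRCm38), which encodes p21, had the highest levels in mice fed the high-fat diet. Normalized counts were 192, 225, 264, 319 and 354 in the NP mice. In the HF mice they were 526, 531, 670, 821 and 916. Every HF mouse thus lay above every NP mouse, a separation seen in 5.67% of all genes for this pair of groups. The same mice were also set apart by cardiomyocyte markers, 8 of 8 with a negative fold change in HF compared to NP (median -0.24). All 8 were negative in LP compared to NP as well (median -0.20). The mitochondrial share of counts also set these HF and NP mice apart, at 38.1% to 39.8% in HF and 41.3% to 47.1% in NP. That share was 35.4% to 44.5% in LP and 38.5% to 47.2% in HF+LP, and its part in the Cdkn1a values was not tested. Means were 271 ± 66.3 in NP and 693 ± 174 in HF (SD, n = 5 each), a log2 fold change of 1.35 with an SE of 0.29 (95% confidence interval 0.75 to 1.96). This missed the threshold of the edgeR test, with an adjusted p of 0.0222, whereas DESeq2 on the same 4 groups gave 0.000520 and edgeR on only these groups gave 0.00613, both below it. Over the alternatives run, adjusted p for this comparison ranged from 0.000520 to 0.0728 and the log2 fold change from 1.23 to 1.52.

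At low protein the groups overlapped. Cdkn1a counts were 195, 212, 226, 455 and 539 in LP, and 346, 348, 542, 643 and 724 in HF+LP. In LP the mice fell into a lower set of 3 (LP 13, LP 15 and LP 20) and 2 higher ones (LP 2 and LP 5), which lay above every NP mouse. HF+LP compared to LP gave a log2 fold change of 0.68 with an SE of 0.29 (edgeR, adjusted p = 0.249), and 0.35 with an SE of 0.30 without LP 13 and LP 20 (edgeR, adjusted p = 0.881). The difference between the fat effects at low and at normal protein was -0.67 on the log2 scale, with a 95% interval from -1.51 to 0.17 (edgeR, adjusted p = 0.766), and so was not called. Without LP 13 and LP 20 it was -1.0 with an SE of 0.40 and was not called either. Averaged over both protein levels, Cdkn1a rose by a log2 fold change of 1.02 with fat, with an SE of 0.20 (edgeR, adjusted p = 0.00667), and 6 of 10 high-fat mice lay above all 10 mice fed normal fat.

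In edgeR that call lay near its threshold, whereas DESeq2 gave an adjusted p of 8.57e-05 for a log2 fold change of 1.02. In edgeR it was lost without LP 13 and LP 20 together (log2 fold change 0.85, adjusted p = 0.0228), with the library-name number as a covariate (0.94, adjusted p = 0.0158) and with the animal number as a block (0.81, adjusted p = 0.141). Leaving out a single mouse kept the log2 fold change between 0.94 and 1.15. The call was kept in 7 of these 20 fits, and was lost without NP 3, NP 4, NP 6, NP 8, LP 13, LP 15, LP 20, HF 2, HF 3, HF 4, HF+LP 3, HF+LP 4 or HF+LP 5, where the adjusted p of edgeR lay between 0.0109 and 0.0165. Protein restriction gave no detectable difference in Cdkn1a, with a log2 fold change of 0.26 in LP compared to NP (interval -0.34 to 0.86), which was 0.58 without LP 13 and LP 20, and -0.41 in HF+LP compared to HF (interval -1.003 to 0.18; edgeR, adjusted p = 0.999). The average over both fat levels was -0.077 (interval -0.50 to 0.35), and turned to 0.081 without LP 13 and LP 20.

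Macrophage transcripts had a higher mean summed level in HF than in NP (295 and 222 CPM), but not in HF+LP than in LP (214 and 250 CPM). The summed level of 8 macrophage markers was 174 to 265 CPM in NP and 243 to 346 CPM in HF, with 139 to 377 in LP and 182 to 262 in HF+LP. At an unadjusted p under 0.05, 5 of the 8 were higher in HF compared to NP, and 2 in HF+LP compared to LP, where 3 of 8 had a positive fold change. The chemokine receptor Cx3cr1 was called for the average effect of fat (log2 fold change 0.83, edgeR adjusted p = 0.00636), a call lost without LP 20 (0.77, edgeR adjusted p = 0.0112) and without LP 13 and LP 20 (0.73, edgeR adjusted p = 0.0206). Of 7 smooth muscle and pericyte markers 2 were lower at an unadjusted p under 0.05 for the average effect of fat, and 2 had a positive fold change. Among them Myh11, the smooth muscle myosin, was called lower (log2 fold change -1.54, adjusted p = 0.000572 in edgeR). In HF+LP compared to LP 3 of the 7 had a positive fold change, with a mean summed level of 660 CPM in HF+LP and 620 CPM in LP. Of 8 endothelial markers 7 had a positive fold change both in HF compared to NP and for the average effect of fat, and none passed an unadjusted p under 0.05 in either. Their summed level was 1054 to 1462 CPM in NP and 1018 to 1805 CPM in HF. Adipocyte markers were lower for the average effect of fat, 4 of 5 at an unadjusted p under 0.05, and none at that level without LP 13 and LP 20. Over the 20 mice, which share diets, the Pearson correlation of Cdkn1a with the scores of 10 marker lists ran from -0.657 for smooth muscle and pericytes to 0.478 for endothelium, with -0.585 for Schwann and neuronal cells, -0.389 for adipocytes and 0.358 for macrophages. The share of these cells in the Cdkn1a values was not tested.

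Cdkn1b (ENSMUSG00000003031, chr6:134920401-134925513, plus strand), which encodes p27, an inhibitor that keeps resting cells out of the cycle, showed the opposite direction. Normalized counts averaged 685 ± 89.1 for NP, 808 ± 130 for LP, 571 ± 82.3 for HF and 658 ± 51.5 for HF+LP. Single mice ranged from 606 to 828 for NP, from 657 to 974 for LP, from 478 to 672 for HF and from 589 to 721 for HF+LP, so all pairs of groups overlapped. The average effect of fat was -0.28 on the log2 scale with an SE of 0.087 (edgeR, adjusted p = 0.0709) and was not called. It was -0.26 at normal protein (interval -0.52 to -0.0024) and -0.30 at low protein (interval -0.55 to -0.039), the latter -0.18 without LP 13 and LP 20. The average effect of protein restriction was 0.22 with an SE of 0.087 (edgeR, adjusted p = 0.829), with 0.24 in LP compared to NP, which was 0.12 without LP 13 and LP 20, and 0.20 in HF+LP compared to HF.

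Cdkn1c (ENSMUSG00000037664, chr7:143458339-143461050, minus strand) encodes p57 and is an imprinted gene, transcribed from the maternal copy. It was highest in the HF+LP group. Counts there were 474, 491, 533, 618 and 657, compared to 289, 308, 338, 377 and 421 in HF. The HF+LP mice therefore lay above all HF mice, a separation that 1.18% of genes showed in this comparison. Means were 555 ± 79.7 and 347 ± 53.1 (SD, n = 5 each), a log2 fold change of 0.68 with an SE of 0.17 (interval 0.33 to 1.03). Its unadjusted p ranked it 38 of the 13991 genes in the edgeR test, but the adjusted p was 0.238. In HF+LP compared to HF, 0 of 13991 genes were called (0%) by edgeR, 677 had an unadjusted p under 0.05 (4.84%), and DESeq2 called 16, with an adjusted p of 0.0451 for Cdkn1c. Adjusted p ran from 0.0451 to 0.7103 over the alternatives, and the log2 fold change from 0.61 to 0.76. In the same comparison 8 of 8 cardiomyocyte markers had a positive fold change (0 at an unadjusted p under 0.05), while 7 of 7 fibroblast markers (1 at that level) and 8 of 8 macrophage markers (2 at that level) had a negative one. Over the 20 mice the Pearson correlation of Cdkn1c with the 10 marker scores ran from -0.656 for fibroblasts to 0.461 for cardiomyocytes, with -0.533 for macrophages. The part of these cells in the Cdkn1c values was not tested.

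At normal fat Cdkn1c did not follow this order. Counts lay between 282 and 500 in NP and between 263 and 484 in LP, with means of 414 ± 90.3 and 385 ± 83.9 and a log2 fold change of -0.11 (interval -0.46 to 0.24), or 0.00063 without LP 13 and LP 20. The difference between the effects of protein restriction at high and at normal fat was 0.79 on the log2 scale, with an SE of 0.24 (interval 0.29 to 1.29, edgeR, adjusted p = 0.614), and so was not called. For this interaction edgeR called 0 genes (0%), DESeq2 called 1, and 7.17% of genes had an unadjusted p under 0.05. HF+LP compared to LP gave 0.53 with an SE of 0.17 (edgeR, adjusted p = 0.142), with 4 of 5 HF+LP mice above all LP mice. HF compared to NP gave -0.26 (interval -0.61 to 0.094). Averaged over fat levels the effect of protein restriction was 0.29 (edgeR, adjusted p = 0.853). Cdkn1c and Cdkn1b were the 2 members with an unadjusted p under 0.05 in that comparison, where 5.47% of all genes passed, edgeR called 0 (0%) and DESeq2 called 1.

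**Figure D2:**
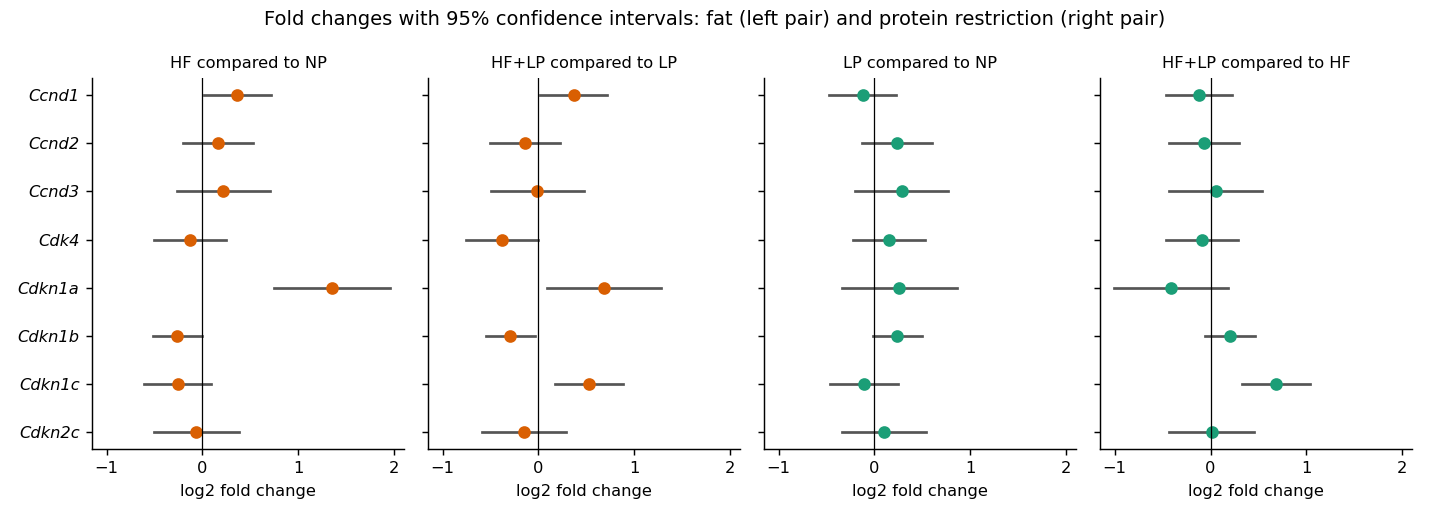
Log2 fold changes (horizontal axis, points) with 95% confidence intervals (lines) from edgeR for the 8 genes, for high fat at normal and low protein (orange) and protein restriction at normal and high fat (green). Cdkn1a at 1.35 in HF compared to NP and Cdkn1c at 0.68 in HF+LP compared to HF lie farthest from 0 in their panels.

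The makeup of the Cip/Kip family, taken as the share of each gene in their summed counts, differed between the groups. Cdkn1b held 50.3% ± 8.56 of the counts in NP and 53.9% ± 11.1 in LP, compared to 35.7% ± 5.79 for HF and 38.3% ± 5.72 for HF+LP (SD, n = 5 each). Cdkn1a held 19.7% ± 4.07 for NP, 21.03% ± 9.06 for LP, 42.5% ± 6.32 for HF and 29.6% ± 7.93 for HF+LP. Cdkn1a lay above Cdkn1b in 4 of 5 HF mice and 2 of 5 HF+LP mice, and in 0 of 5 mice in each of NP and LP. The share of Cdkn1c was 30.0% ± 5.16 for NP, 25.1% ± 3.33 for LP, 21.8% ± 4.42 for HF and 32.1% ± 4.57 for HF+LP. Counts of the 3 inhibitors per D cyclin count were 0.188 ± 0.0299 for NP, 0.182 ± 0.0176 for LP, 0.190 ± 0.0397 for HF and 0.212 ± 0.0293 for HF+LP. These shares restate the counts above and were given no test.

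**Figure D3:**
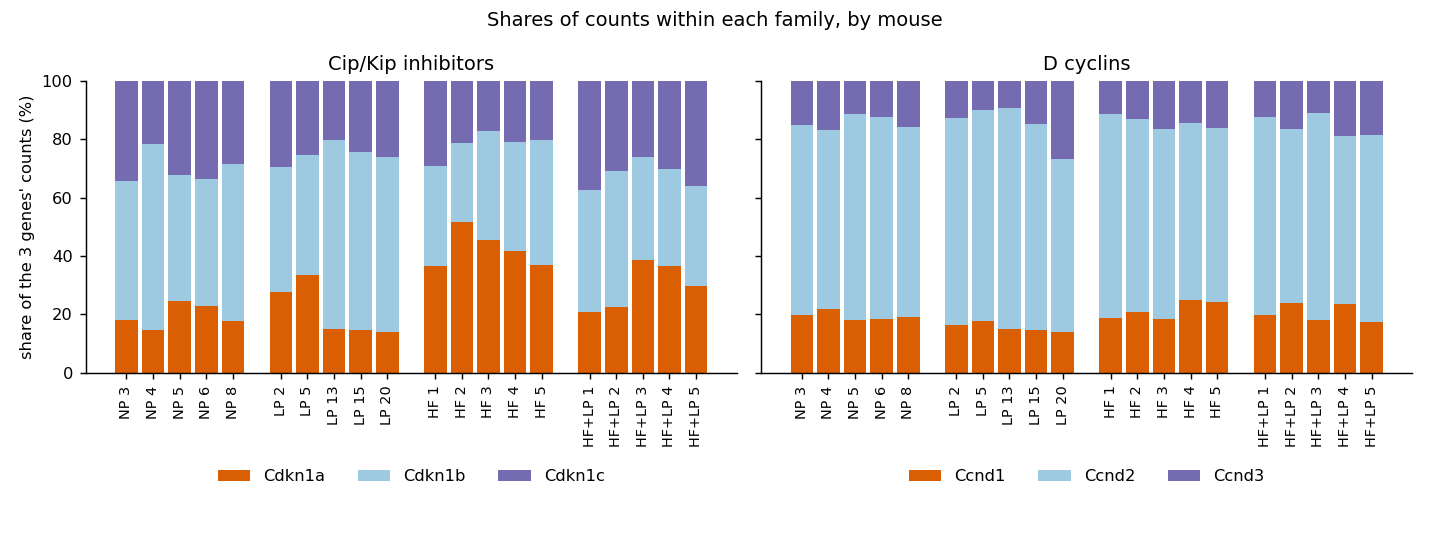
Share of each gene (vertical axis, %) in the summed counts of the Cip/Kip inhibitors (left) and of the D cyclins (right) in every mouse (horizontal axis), grouped by diet. The orange Cdkn1a share averages 42.5% in HF compared to 19.7% in NP, while Ccnd2 averages 64.0% to 69.8% of D cyclin counts in all 4 groups.

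Ccnd1 (ENSMUSG00000070348, chr7:144929931-144939925, minus strand), the D cyclin most responsive to growth signals, was one of the transcripts the study followed as a marker of heart failure. Counts were 1222, 1298, 1462, 1562 and 1621 in NP, and 1312, 1816, 1846, 2068 and 2195 in HF, so 4 of 5 HF mice lay above all NP mice. They were 926, 1180, 1261, 1425 and 1789 in LP, and 1229, 1587, 1820, 1880 and 1967 in HF+LP, which overlapped more widely. In HF+LP compared to LP, 0 of the 8 genes had groups without overlap, beside 1.87% of all genes. Means were 1433 ± 170 for NP, 1316 ± 320 for LP, 1847 ± 338 for HF and 1697 ± 297 for HF+LP. Fat gave the same log2 fold change at normal and at low protein, 0.37 in each, and neither was called (edgeR, adjusted p = 0.350 and 0.287). The average effect of fat was 0.37 with an SE of 0.12 (edgeR, adjusted p = 0.0755), and over the alternatives its adjusted p lay between 0.0244 and 0.657. Protein restriction gave -0.12 in LP compared to NP (interval -0.47 to 0.22) and -0.12 in HF+LP compared to HF (interval -0.47 to 0.22). Without LP 13 and LP 20, LP compared to NP turned to 0.040 and HF+LP compared to LP was 0.19.

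Ccnd2 (ENSMUSG00000000184, chr6:127125162-127152193, minus strand) was the dominant D cyclin, with 64.0% to 69.8% of the D cyclin counts on average in the 4 groups. Normalized counts were 4976 ± 1151 for NP, 5856 ± 971 for LP, 5589 ± 1143 for HF and 5321 ± 1109 for HF+LP. The log2 fold change was 0.17 in HF compared to NP (interval -0.20 to 0.53), 0.23 in LP compared to NP (interval -0.13 to 0.60), or 0.37 without LP 13 and LP 20, and -0.071 in HF+LP compared to HF (interval -0.44 to 0.30). No difference was detectable, and the intervals with all mice leave room for changes of up to 0.60 on that scale.

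Ccnd3 (ENSMUSG00000034165, chr17:47505051-47599691, plus strand) is a D cyclin used in lymphoid as well as muscle cells. Counts were 937, 980, 1068, 1090 and 1113 in NP and 1116, 1164, 1191, 1261 and 1298 in HF. The HF mice thus lay above all NP mice, yet by a small step, with a log2 fold change of 0.22 and an SE of 0.23 (edgeR, adjusted p = 0.784). That SE rests on a spread shared by all 4 groups, with SDs of 75.5 in NP, 73.4 in HF and 686 in LP. Over the alternatives the adjusted p (edgeR or DESeq2) ran from 0.103 to 0.876 and the log2 fold change from 0.18 to 0.29. Together with Cdkn1a, 2 of the 8 genes had groups that did not overlap in this comparison, beside 5.67% of all genes. The spread was widest in LP, where counts were 584 in LP 13, 1008 in LP 5, 1106 in LP 2, 1192 in LP 15 and 2415 in LP 20, the lowest and the highest of all 20 mice. LP compared to NP gave 0.28 (interval -0.20 to 0.77), 0.46 without LP 13, -0.093 without LP 20, and 0.089 without both. HF+LP mice ranged from 993 to 1568.

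**Figure D4:**
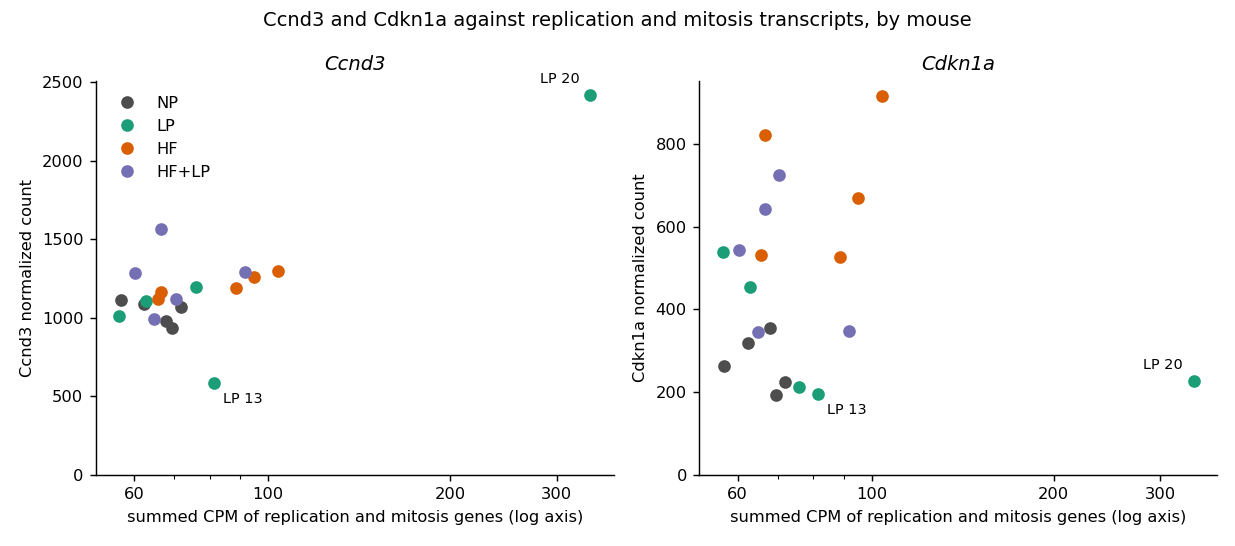
Normalized counts of Ccnd3 (left) and Cdkn1a (right) in each mouse against the summed CPM of 20 replication and mitosis genes (horizontal log axis), coloured by diet group. LP 20 stands alone at 341 CPM with 2415 Ccnd3 counts and 226 Cdkn1a counts, while the other mice lie between 56.8 and 104 CPM.

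Cdk4 (ENSMUSG00000006728, chr10:127063534-127067920, plus strand), the kinase that D cyclins activate, was among the less abundant of these transcripts. Its counts were 230 ± 46.8 for NP, 254 ± 79.9 for LP, 209 ± 11.6 for HF and 196 ± 40.5 for HF+LP, with the highest value, 389, in LP 13. HF+LP compared to LP gave a log2 fold change of -0.38 (interval -0.75 to -0.0013), with an adjusted p of 0.313 in edgeR. It was -0.17 without LP 13 and -0.13 without LP 13 and LP 20. HF compared to NP gave -0.13 (interval -0.51 to 0.24), and LP compared to NP 0.15 (interval -0.22 to 0.53), which turned to -0.063 without LP 13. Cdkn2c (ENSMUSG00000028551, chr4:109660876-109667189, minus strand), which encodes the INK4 inhibitor p18, was the least abundant, at 76.6 ± 8.94 for NP, 81.2 ± 28.4 for LP, 73.4 ± 19.4 for HF and 73.9 ± 6.43 for HF+LP. Its log2 fold change was -0.064 in HF compared to NP (interval -0.51 to 0.38), 0.098 in LP compared to NP (interval -0.34 to 0.54), which was -0.083 without LP 20 and -0.32 without LP 13 and LP 20, and 0.013 in HF+LP compared to HF (interval -0.43 to 0.46).

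For LP compared to NP, none of the 8 genes had an unadjusted p under 0.05, where 7.23% of all genes did, and edgeR called 0 of 13991 genes (0%) and DESeq2 4. Cdkn1b had the smallest p of the members (edgeR, adjusted p = 0.719). The median log2 fold change of the 8 genes was 0.19, beside 0.023 over all genes, and 6 members were higher and 2 lower, with 54.6% of all genes higher. Without LP 13 and LP 20 the median of the members was 0.065.

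The genes that act with or after these 8 were read from lists chosen for their place in the pathway, with earlier results of these data known. Of 14 tested cyclin and kinase partners, which include the later cyclins, none was called in any comparison, and the median log2 fold change was 0.21 both in HF compared to NP and in LP compared to NP. Those with the smallest p were the mitotic cyclins Ccnb1, Ccna2 and Ccnb2. Ccnb1 gave 2.16 on the log2 scale in LP compared to NP (edgeR, adjusted p = 0.625), and -0.095 without LP 20. Without LP 20 the median of this list in LP compared to NP went from 0.21 to -0.17. Of 6 other genes tested that inhibit CDKs or are named for a tie to them, none was called, and 1 had an unadjusted p under 0.05 in any comparison. This was Cdk5rap1, which binds an activator of CDK5 and is neither a Cip/Kip nor an INK4 inhibitor. It gave 0.28 on the log2 scale in HF+LP compared to HF (edgeR, adjusted p = 0.981). The INK4 gene Cdkn2d gave -0.31 in HF+LP compared to LP (edgeR, adjusted p = 0.373), and -0.026 without LP 13 and LP 20. Another of that list, Cdkn3, a phosphatase that acts on CDKs, gave -0.99 in HF+LP compared to HF at a mean count of 7.02 (edgeR, adjusted p = 0.999).

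Pocket proteins, which D cyclin kinases phosphorylate, and the E2F factors and partner genes listed with them came to 16 tested genes, and none was called. E2f3, an activating E2F, averaged 61.8 ± 12.8 counts for NP, 67.9 ± 19.01 for LP, 91.4 ± 7.82 for HF and 81.8 ± 13.6 for HF+LP. All HF mice (85.2 to 102) lay above all NP mice (47.7 to 78.7), and these groups did not overlap in 5.67% of all genes. For E2f3 the average effect of fat was 0.42 with an SE of 0.13 (edgeR, adjusted p = 0.0663). E2f2 reached 1322 counts in LP 20 and stayed between 19.1 and 103 in the other 19 mice. Of 16 genes for the turnover of D cyclins and inhibitors none was called. Ddb1 is an adaptor of the CUL4 ubiquitin ligase that targets p21 and a DNA repair factor. Its counts averaged 2128 ± 146 for NP, 2238 ± 236 for LP, 1813 ± 156 for HF and 1911 ± 207 for HF+LP. The average effect of fat on it was -0.23 (edgeR, adjusted p = 0.0581).

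Replication and mitosis genes, which E2F factors drive, were tested for 20 of 23 on the list. In LP compared to NP, 13 of the 20 were higher at an unadjusted p under 0.05 and the median log2 fold change was 0.88, and none was called. Without LP 20 the count went to 1 higher and 1 lower and the median to 0.011. In HF compared to NP the median was 0.50 in both cases, with 1 gene at an unadjusted p under 0.05 with LP 20 and 6 without it. Mcm3, a subunit of the replicative helicase, averaged 88.6 ± 15.5 counts in NP and 141 ± 20.3 in HF. It averaged 156 ± 90.7 in LP, where LP 20 reached 316, and 115 ± 18.5 in HF+LP. For the average effect of fat the list's median changed sign, from -0.29 with LP 20 to 0.31 without it.

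Among 22 other genes of the p53 pathway none was called, and the median for the average effect of fat was 0.000881. At an unadjusted p under 0.05, 4 were higher and 1 lower, beside 8.28% and 12.6% of all genes. Gdf15, a secreted stress factor, averaged 62.9 ± 34.3 counts for NP, 51.5 ± 26.0 for LP, 184 ± 87.9 for HF and 96.2 ± 18.2 for HF+LP. Its average effect of fat was 1.23 with an SE of 0.28 (edgeR, adjusted p = 0.0159). Mdm4, a negative regulator of p53, averaged 341 ± 24.8 in NP and 266 ± 42.3 in HF, with an average effect of fat of -0.36 and an SE of 0.088 (edgeR, adjusted p = 0.0231). Phlda3, a p53 target that restrains AKT, had counts of 78.6 ± 12.3 for NP, 116 ± 52.5 for LP, 111 ± 11.5 for HF and 84.5 ± 10.2 for HF+LP, with an interaction of -0.97 (edgeR, adjusted p = 0.614) that was -0.49 without LP 13 and LP 20.

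The genes whose pattern over the 20 mice was most like that of each member were ranked by Pearson's r of log2 CPM among 10158 other genes with a mean count over 50. The r values are descriptions of 20 libraries that share the effects of depth and composition. For Cdkn1a the leading genes were E2f3 (r = 0.918), Nostrin, a trafficking protein of endothelial nitric oxide synthase (r = 0.896), and Gng11, a G protein subunit (r = 0.893). For Cdkn1c they were Mapk14, the stress kinase p38α (r = 0.853), Pank1 (r = 0.833) and Erc1 (r = 0.816). Ccnd1 was most like Rpf2 (r = 0.880), Ccnd2 most like the translation factor gene Eif5 (r = 0.870), Ccnd3 most like Ptbp3 (r = 0.864), Cdk4 most like Eif5a (r = 0.879) and Cdkn1b most like Arhgef1 (r = 0.868). Cdkn2c had the weakest match, with Fam91a1 (r = 0.702).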

How the data were processed

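Left ventricles of 20 mice were profiled with QuantSeq 3′ libraries. The authors aligned 75-base reads with BlueBee software, and the deposited values are raw counts per gene and mouse. The submitters' processing notes name GRCm38 and DESeq2 1.22.2. The counter, its annotation and its strand setting are not given in the sources used here, so overlapping and antisense genes cannot be told apart. Listed genes have at least 60 counts in all, and 15917 of 15956 have a symbol. Coordinates are from GENCODE M21.

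Groups were taken from the diet in the labels. The mice are separate animals. Counts were filtered with filterByExpr by diet (13991 genes kept), scaled by TMM and fitted in edgeR 4.0.16 (R 4.3.3) with all 20 libraries in one model. The study used DESeq2, which entered here as an alternative (DESeq2 1.42.0). The study's thresholds were kept (q under 0.01, base mean over 50), with Benjamini-Hochberg adjustment, and 10159 genes had that base mean. Comparisons were HF with NP, LP with NP, HF+LP with HF, HF+LP with LP, the average effects of fat and of protein restriction, and their interaction. HF with NP and LP with NP share the NP mice, and the others share groups likewise. SEs came from the F statistic and intervals from its degrees of freedom. The normalized count is the count scaled to the mean effective library size. On simulated HF and NP counts for 13828 genes, 178 of 200 changes of 1.5 on the log2 scale were recovered (89%).

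Alternatives were RLE size factors, DESeq2, other filters and thresholds, the library-name number (of unstated meaning) as a covariate, a block for the animal number, 2 groups only, and each mouse left out. Leaving out LP 13 and LP 20 together was chosen after seeing the data. The members and all gene lists were chosen with earlier results of these data known. Named beside the members are genes called within a list or, failing that, up to 3 with the smallest p, and the 3 genes most like each member.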

Additional observations from a re-analysis of the deposited data

How the results depend on the processing

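Of 1544 recomputed log2 fold changes of the 8 genes in the 7 comparisons, 1434 kept their direction and side of the threshold, 92 changed sign, 16 lost a call and 2 gained one. Those that changed sign were not called in the first place. Calls among the 8 genes in HF compared to NP went from 0 to 1 (Cdkn1a) under DESeq2, at an adjusted p under 0.05, and with only those groups in the model. For the average effect of fat they went from 1 to 0 with the library-name number as a covariate (Cdkn1a 0.94, edgeR adjusted p = 0.0158), with the replicate block, and without LP 13 and LP 20, and numbered between 0 and 1 with each mouse left out. The genes called for the average effect of fat numbered 140, compared to 398 under DESeq2, 502 at an adjusted p under 0.05 and 13 with the block. HF compared to NP had 37, compared to 163 under DESeq2, 157 at an adjusted p under 0.05, 61 with only those groups in the model, 76 without LP 13 and LP 20, and 2 with the block. In HF+LP compared to LP they numbered 14, compared to 84 under DESeq2, 5 with the library-name covariate, 4 without LP 13 and LP 20, and 0 with the block or with only those groups. With a single mouse left out these counts lay between 79 (without HF 4) and 198 (without LP 5), between 20 (without NP 6 or HF 4) and 69 (without LP 13), and between 1 (without HF+LP 2 or HF+LP 4) and 16 (without HF+LP 3).

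Without LP 13 and LP 20, sign changes in LP compared to NP were Ccnd1 0.040, Cdk4 -0.11, Cdkn1c 0.000633 and Cdkn2c -0.32, in HF+LP compared to LP Ccnd3 0.17 and Cdkn2c 0.26, for the interaction Ccnd1 -0.17, Cdk4 0.0086, Cdkn1b 0.081 and Cdkn2c 0.33, for the average effect of fat Ccnd2 -0.057 and Cdkn2c 0.099, and for protein restriction Cdk4 -0.10, Cdkn1a 0.081 and Cdkn2c -0.16. Cdkn2c in HF+LP compared to HF was -0.012 under RLE size factors and -0.011 under DESeq2. The interaction of Ccnd1, at 0.00083, went to -0.021 under each of those, -0.012 with at least 10 counts in every library and -0.049 with the library-name covariate. Ccnd3 in HF+LP compared to LP, at -0.012, went to 0.00070 without a filter and 0.00068 with that covariate. With each mouse left out in turn, LP compared to NP ranged over 0 for Ccnd3 (-0.093 without LP 20 to 0.46 without LP 13), Cdk4 (-0.063 to 0.27), Cdkn1a (-0.0046 to 0.40), Cdkn1c (-0.22 to 0.0017) and Cdkn2c (-0.083 to 0.22). HF+LP compared to HF did so for Ccnd2 (-0.23 to 0.020), Ccnd3 (-0.041 to 0.13) and Cdkn2c (-0.13 to 0.11), HF+LP compared to LP for Ccnd3 (-0.20 without LP 13 to 0.35 without LP 20) and Cdkn2c (-0.27 to 0.026), the interaction for Ccnd1 (-0.11 to 0.14), Ccnd3 (-0.41 to 0.14), Cdkn1b (-0.11 to 0.036) and Cdkn2c (-0.22 to 0.089), HF compared to NP for Cdkn2c (-0.16 to 0.077), the average effect of fat for Ccnd2 (-0.039 to 0.061), and that of protein restriction for Ccnd3 (-0.025 to 0.25), Cdk4 (-0.080 to 0.090) and Cdkn2c (-0.038 to 0.12). The cause of these changes was not tested.

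Animal numbers are shared between groups but belong to different mice, and only 7 of 16 same-numbered pairs had correlated deviations over 0.1 (range -0.553 to 0.476), so the numbers were not taken to pair the mice. With the animal number as a replicate block, the average effect of fat on Cdkn1a was 0.81 (edgeR, adjusted p = 0.141), that on Ccnd2 -0.087, on Cdkn1c -0.001002 and on Cdkn2c 0.14. LP compared to NP was 0.16 for Ccnd1, -0.25 for Cdk4, 0.030 for Cdkn1c and -0.35 for Cdkn2c. HF+LP compared to LP was 0.029 for Cdk4, 0.28 for Ccnd3 and 0.33 for Cdkn2c, the interaction was -0.27 for Ccnd1, 0.15 for Cdk4, 0.21 for Cdkn1b and 0.38 for Cdkn2c, and the average effect of protein restriction was 0.020 for Ccnd1, -0.17 for Cdk4, 0.27 for Cdkn1a and -0.16 for Cdkn2c.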

Other observations

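Inhibitor genes of the Cip/Kip family are also read through FOXO factors and glucocorticoids, and 18 genes of that list were tested. None was called in any comparison. For protein restriction averaged over fat levels, Foxo1 gave a log2 fold change of 0.19 and Irs2, an insulin signaling adaptor, 0.49 (edgeR, adjusted p = 0.678 and 0.700). Foxo3 gave -0.35 for the average effect of fat (edgeR, adjusted p = 0.0825). Cdkn1c belongs to a set of imprinted genes that are often expressed together, of which 14 were tested. The maternally expressed noncoding RNA Meg3 fell with fat, from 520 ± 82.8 counts in NP and 533 ± 94.8 in LP (SD, n = 5 each) to 293 ± 67.0 for HF and 355 ± 75.05 for HF+LP, a log2 fold change of -0.71 for the average effect of fat (edgeR, adjusted p = 0.00267). It was the only gene called among the pathway lists.

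Among the other cell type markers, the cardiomyocyte myosin gene Myh6 was called lower for the average effect of fat (log2 fold change -0.55, edgeR adjusted p = 0.00252), and 4 of 8 cardiomyocyte markers were lower at an unadjusted p under 0.05 in HF compared to NP. The median of that list was -0.051 for the average effect of fat, and 5 of 8 had a positive fold change in HF+LP compared to LP, where 2 were lower at that level. In HF compared to NP 0 of 7 fibroblast, 3 of 7 smooth muscle and pericyte (lower), 0 of 3 tested lymphocyte, 0 of 5 adipocyte, 0 of 5 atrial, 1 of 5 erythroid (higher) and 0 of 3 tested Schwann and neuronal markers passed that level. For the average effect of fat 4 of 5 adipocyte markers were lower at that level, with a median log2 fold change of -2.44, which was -0.29, with 0 of 5 at that level, without LP 13 and LP 20. In HF+LP compared to LP 5 of 5 were lower at that level, and 0 of 5 without those mice. Over the 20 mice the lowest Pearson correlation of Ccnd1 with a marker score was -0.792, for Schwann and neuronal cells (3 markers), followed by -0.653 for adipocytes, and the highest of Cdkn2c was 0.625, for adipocytes. Adipocyte markers summed to 185 CPM in LP 13 and 63.1 CPM in LP 20, the highest of the 20 mice, and to 1.45 at the lowest in HF+LP. The atrial marker Bmp10 was at 0 in 1 LP mouse and at 13692 counts in LP 13. The T cell genes Cd3e, Cd3g and Cd3d did not pass the filter on low counts.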
